A study of Mus musculus with 4 samples.

Results

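The nuclear receptor superfamily genes outside the NR2F, RAR and RXR groups were examined as targets of NR2F1 in the embryonic hindbrain. The set was a fixed list of 38 genes, taken by name and not by signal. Their promoters were the called regions within 1 kb, in either direction, of a transcription start site (TSS) taken from the protein-coding transcripts of these genes. In all, 58 of the 263639 merged regions met this rule for 35 of the 38 genes, and 30 of these regions, from 23 genes, had a called peak in every library and could be compared between genotypes. These 30 regions were among 35770 tested regions, of which 12647 were promoters of protein-coding genes.

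Single-cell CUT&Tag uses an antibody, here against NR2F1, to bring the transposase Tn5 to chromatin, so that each cut site counts as signal near the bound protein. The cells came from rhombomere 4 (r4) and adjacent tissue of embryonic day 10.5 mouse hindbrains that carried the Isl1MN-GFP reporter, which marks motor neurons, in both genotypes. The WT libraries were pools of 26 and 26 embryos, and the Fam5snv/snv libraries were pools of 8 and 16 embryos. Fam5snv/snv embryos were homozygous for the mouse counterpart of a noncoding single-nucleotide variant found in the human facial paresis HCFP1. It lies in an element that the paper describes as a silencer of Gata2. The paper reports normal facial motor nuclei and whisker movement in mice of this genotype. GFP-positive cells were sorted, and at the end the gate was widened to take in GFP-negative cells as well, so the barcodes may include neighbouring cell types.

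The libraries differed in depth and in how much was called as a peak. The WT libraries held 3083946 and 3580517 cut sites and the Fam5snv/snv libraries 8967987 and 10341894, over 1377 to 2740 cell barcodes. Peaks covered 31.0 Mb in WT replicate 1, which stood apart, and 93.1 Mb to 143 Mb in the other libraries. Pairs of libraries shared 3 to 12 barcodes. Over the markers of cranial motor neurons, 7 of 8 genes had a tested promoter region, with summed levels of 486 to 496 CPM (cut sites scaled to 1000000 per library) in WT and 537 to 560 in Fam5snv/snv. Hindbrain progenitor markers, 5 of 5 tested, summed to 448 to 459 CPM in WT and 372 to 403 in Fam5snv/snv. Endothelial markers, 2 of 5 tested, summed to 103 to 110 CPM in WT and 156 to 166 in Fam5snv/snv, with no tested region at Cdh5, Kdr or Pecam1, and 2 of their 3 regions were higher in Fam5snv/snv at an unadjusted edgeR p under 0.05. Blood markers, 3 of 5 tested, summed to 59.6 and 100.2 CPM in WT and 77.3 to 84.2 in Fam5snv/snv, and neural crest and mesenchyme markers, 5 of 5 tested, to 84.1 and 145 in WT and 102 to 116 in Fam5snv/snv. The 6 regions of this last list had log2 fold changes from −1.33 to 2.20, with 1 lower and 1 higher at an unadjusted edgeR p under 0.05. No region of the motor neuron, progenitor or blood lists passed this threshold. Among promoter regions 6.7% were lower and 1.54% higher by it, and among all tested regions 3.37% and 5.29%. The marker values are levels of NR2F1 signal and not of RNA, and the part of any cell type in the differences given here was not tested.

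Nuclear receptors are transcription factors with a conserved zinc finger domain that binds DNA and, in most members, a pocket for a small lipophilic ligand such as a steroid, thyroid hormone, an oxysterol or a fatty acid. Many bind the hexamer AGGTCA, alone with a flanking extension or as a repeat with another receptor. NR2F1, also called COUP-TFI, is itself an orphan member of the superfamily that binds such repeats and is known in the hindbrain and forebrain for its part in neuronal identity and migration. Family members share sites and partners, and each can be regulated by others.

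The 3 promoters with the most NR2F1 signal per kb of called peak are shown first, since they carry the levels described here. The sequences are from the mouse genome GRCm38 (mm10), end 1 base before a TSS, and are written in the direction of transcription, with every AGGTCA on either strand in capitals. Nr1d2 encodes REV-ERB beta, a repressor of the circadian clock, and its window lies at chr14:18239128-18239377 on the minus strand. Nr2c1 and Nr2c2 encode the testicular orphan receptors TR2 and TR4, which bind direct repeats as NR2F1 does, and their windows lie at chr10:94148169-94148418 and chr6:92091140-92091389 on the plus strand. Of 14 such windows free of UTR at the strongest regions, 2 held AGGTCA, and both are shown. Nr2c1 and Nr2c2 each have another window of this kind, at chr10:94147773-94148022 and chr6:92092183-92092432, without AGGTCA.
Nr1d2: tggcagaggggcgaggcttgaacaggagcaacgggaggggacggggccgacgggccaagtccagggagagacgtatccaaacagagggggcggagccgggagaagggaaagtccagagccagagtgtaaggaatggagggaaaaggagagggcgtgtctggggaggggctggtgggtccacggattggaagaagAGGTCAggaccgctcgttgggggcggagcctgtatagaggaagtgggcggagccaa
Nr2c1: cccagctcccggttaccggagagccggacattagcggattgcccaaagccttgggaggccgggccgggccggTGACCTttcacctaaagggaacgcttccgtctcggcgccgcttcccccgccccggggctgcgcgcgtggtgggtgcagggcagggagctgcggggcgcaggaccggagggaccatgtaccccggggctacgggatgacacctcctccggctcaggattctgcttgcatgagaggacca
Nr2c2: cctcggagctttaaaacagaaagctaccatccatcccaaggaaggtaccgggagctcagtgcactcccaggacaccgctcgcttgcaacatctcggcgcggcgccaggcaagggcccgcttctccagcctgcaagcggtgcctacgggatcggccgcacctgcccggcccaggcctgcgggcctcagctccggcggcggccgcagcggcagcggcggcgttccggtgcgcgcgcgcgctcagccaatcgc
All 3 windows were GC rich, with 63.6%, 69.2% and 70.4% G or C. The Nr2c1 site is AAAGGTCA on the minus strand, the core with the extension known from orphan receptors that bind as monomers. The Nr2c2 window held no AGGTCA, which says only that these letters are not there.

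Examples of other cores that lay under a called peak in all 4 libraries are shown with 30 bases on either side, written so that the core reads AGGTCA. They were chosen after the sites were seen, as cores upstream of a TSS and outside exons and as 1 of an overlapping pair at Nr5a2, and further cores of the set under a peak in all 4 libraries, such as those of Nr4a2 and Thra, are not shown. They belong to Nr1d1 (REV-ERB alpha, chr11:98775681-98775746, minus strand), Nr4a1 and Nr4a3 (immediate-early orphan receptors, chr15:101253769-101253834, minus strand, and chr4:48044619-48044684, plus strand), Thrb (a thyroid hormone receptor, chr14:17660746-17660811, plus strand), Ppard (a fatty acid receptor, chr17:28232406-28232471, minus strand), Esrra (the oestrogen-related receptor ERR alpha, a regulator of mitochondrial genes, chr19:6921287-6921352, minus strand) and Nr5a2 (LRH-1, chr1:136953127-136953192, minus strand).
Nr1d1: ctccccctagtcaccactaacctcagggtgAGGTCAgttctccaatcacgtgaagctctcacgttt
Nr4a1: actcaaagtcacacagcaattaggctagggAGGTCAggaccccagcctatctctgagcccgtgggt
Nr4a3: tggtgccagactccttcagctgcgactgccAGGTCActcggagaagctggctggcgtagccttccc
Thrb: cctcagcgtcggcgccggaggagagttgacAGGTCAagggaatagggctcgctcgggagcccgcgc
Ppard: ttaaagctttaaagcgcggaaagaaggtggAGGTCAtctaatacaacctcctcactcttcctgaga
Esrra: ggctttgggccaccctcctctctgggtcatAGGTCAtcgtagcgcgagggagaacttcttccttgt
Nr5a2: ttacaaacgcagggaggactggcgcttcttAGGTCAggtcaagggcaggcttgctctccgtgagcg
These cores lay 120 to 504 bases upstream of the nearest TSS, except that of Nr5a2, which lay 468 bases downstream of its TSS and shared its last base with an overlapping AGGTCA.

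Across the 38 genes, 32 of 124 TSS windows of 250 bp on either side held AGGTCA on either strand (25.8%), against 22.8% of the 54355 windows of all protein-coding genes. By gene, 19 of 38 had such a window, against 35.1% of 21829 genes. The set had more TSS windows per gene than all genes, so the shares by gene are not like for like. AAAGGTCA was in the windows of Nr2c1 and Nr2c2, 3 of 124 (2.42%), against 1.85% of all windows. With 500 bp on either side this order turned, at 2.42% of the windows of the set against 3.95% of all windows. Counted over called regions in place of fixed windows, AGGTCA was in 24 of the 30 tested regions, against 70.0% of tested promoter regions, and at 0.671 per kb, against 0.647. AAAGGTCA was in 6 of the 30 regions, against 11.7%, and at 0.101 per kb, against 0.0471. The matches of Nr2c1 and Nr2c2 lay under a called peak in all 4 libraries. Those of Nr4a1, Ppard, Esrra and Esrrg lay under a peak in 1 or 2 libraries, never WT replicate 1. Every AAAGGTCA match is also an AGGTCA match. No tested region of the set held AGGTCA as a direct, inverted or everted repeat with 0 to 5 bases between the hexamers, and such repeats were rare in all promoter regions, the direct repeat with 1 base between being in 0.846%. Outside the tested regions, 1 of the 124 TSS windows, at Thrb, held the everted repeat with 1 base between (0.806%), against 0.0129% of all windows. Of 60 AGGTCA matches in the tested regions, 26 were under a called peak in all 4 libraries. These counts describe letters and not bound sites.

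NR2F1 peaks were called at most of these promoters, as they were at the promoters of most protein-coding genes. A peak within 1 kb of a TSS was called for 23 of the 38 genes in WT replicate 1, 32 in WT replicate 2, 34 in Fam5snv/snv replicate 1 and 35 in Fam5snv/snv replicate 2. In all protein-coding genes the shares were 58.3%, 70.3%, 70.0% and 71.8%. The 23 genes with a peak in every library (60.5% of 38, against 58.1% of all genes) included all 3 NR4A immediate-early receptors (Nr4a1, Nr4a2, Nr4a3), both REV-ERB genes (Nr1d1, Nr1d2), both liver X receptors (Nr1h2, Nr1h3), both thyroid hormone receptors (Thra, Thrb), the receptors for glucocorticoids (Nr3c1) and mineralocorticoids (Nr3c2), TR2 and TR4 (Nr2c1, Nr2c2), and the 3 oestrogen-related receptors (Esrra, Esrrb, Esrrg). Nr2e1, known as Tlx and required in neural stem cells (its region is shared with the promoter of Ostm1), the retinoid-related orphan receptors Rora and Rorb, Nr5a2, Nr6a1 (GCNF, a repressor of pluripotency genes), Ppard and Pparg completed this group.

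No peak was called in any library at Nr1h4 and Nr1h5, receptors for bile acids and sterols, or at Nr1i3 (CAR, a receptor for foreign compounds). A further 9 genes had a peak in all libraries but WT replicate 1: Nr0b1 and Nr0b2 (DAX1 and SHP, which lack the DNA binding domain), Nr5a1 (SF-1, a regulator of steroid synthesis), Ppara, Vdr (the vitamin D receptor), Hnf4g, Esr1 and Esr2 (oestrogen receptors) and Pgr (the progesterone receptor). That pattern was found in 23.7% of the set and in 8.68% of all genes. Peaks in both Fam5snv/snv libraries only were found for 2 genes, Nr1i2 (PXR, a receptor for foreign compounds) and Nr2e3 (a photoreceptor regulator), which is 5.26% of the set against 1.83% of all genes. Hnf4a, a liver and gut receptor, had a peak in Fam5snv/snv replicate 2 only.

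Where a library had no peak its count is not known to be 0, because counts exist only inside each library's own peaks. Pgr held 105 cut sites in WT replicate 2 and 68 and 80 in Fam5snv/snv. Nr5a1 held 71 in WT replicate 2 and 78 and 153 in Fam5snv/snv. Esr2 held 1 in WT replicate 2 and 30 and 68 in Fam5snv/snv. Pgr had its highest raw count in a shallow WT library, whereas Nr5a1 and Esr2 had theirs in the deepest library. Raw counts follow depth, and in CPM Pgr, Nr5a1, Nr0b1 and Esr1 were highest in WT replicate 2. Ppara, Nr0b2, Vdr and Hnf4g were highest in CPM in Fam5snv/snv replicate 1. In WT replicate 2 Pgr held 36.9 CPM, against 9.30 and 10.1 in Fam5snv/snv. Nr0b1 held 11.3 CPM there, against 1.78 and 4.93, and Esr1 2.81, against 0.957 and 1.01. Nr5a1 held 24.97 CPM in WT replicate 2 and 10.66 and 19.35 in Fam5snv/snv. Esr2 was highest in Fam5snv/snv replicate 2 on either scale. Ppara held 28, 82 and 50 cut sites in the same order, Nr0b1 32, 13 and 39, and Nr0b2 8, 34 and 30. Vdr held 8, 24 and 12, Hnf4g 7, 20 and 20, and Esr1 8, 7 and 8. The Hnf4g peak of WT replicate 2 was in another merged region than those of Fam5snv/snv. Nr1i2 held 51 and 30 in the Fam5snv/snv libraries, and Hnf4a 14 in its 1 library. Nr2e3 held 42 in Fam5snv/snv replicate 1 and 37 in Fam5snv/snv replicate 2, in separate merged regions. WT replicate 2 held 4 in the merged region of the 42, in a peak that did not itself reach the promoter window. None of these 12 genes was tested.

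**Figure D1:**
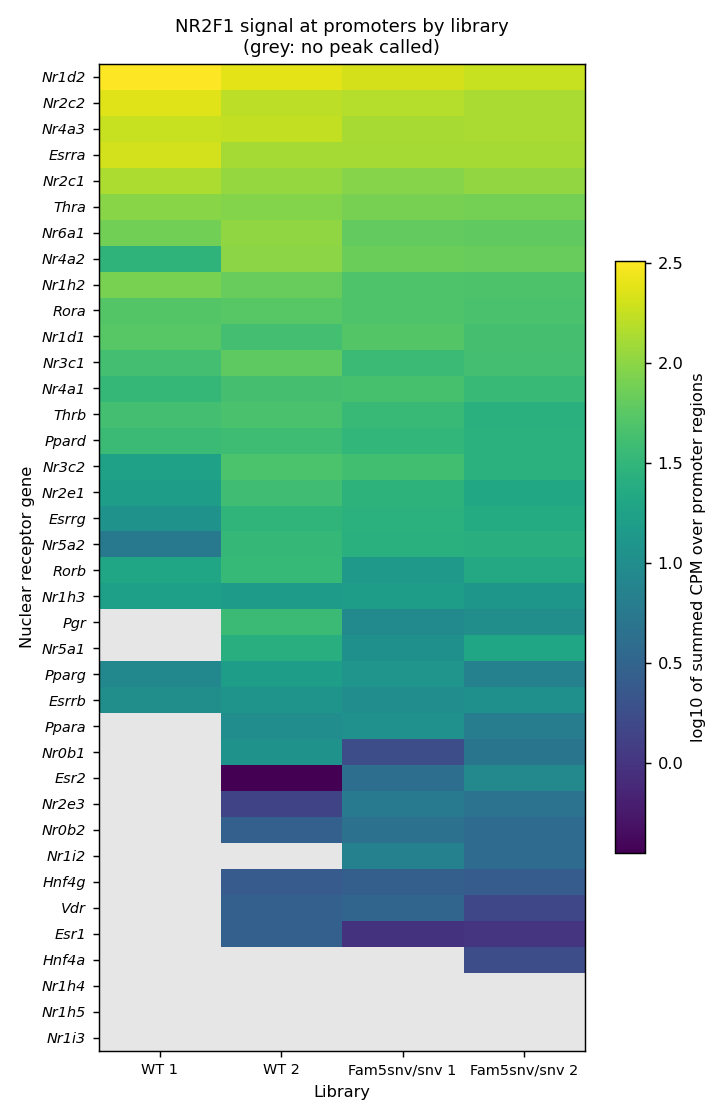
NR2F1 signal at the promoters of the 38 genes (rows) in the 4 libraries (columns), as log10 of the CPM summed over the merged promoter regions of a gene, with grey where no peak was called in those regions. Genes are ordered by mean level, from Nr1d2 at the top to the 3 genes with no peak, and grey is most frequent in WT replicate 1.

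The genes with a peak in every library had promoters richer in CpG. Within 500 bp of the TSS of highest CpG content, the median ratio of observed to expected CpG was 0.751 over the 23 genes with a peak in every library (0.381 to 1.01) and 0.411 over the other 15 (0.120 to 0.882). In all protein-coding genes the same medians were 0.761 over 12695 genes and 0.227 over 9134 genes. Nr5a1 (0.882) and Ppara (0.788) had high CpG content and no peak in WT replicate 1. Nr1h3 (0.381) and Nr1d1 (0.438) had low content and a peak in every library. The difference in CpG content along with called peaks was thus also present genome-wide, and no test was made of it.

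**Figure D2:**
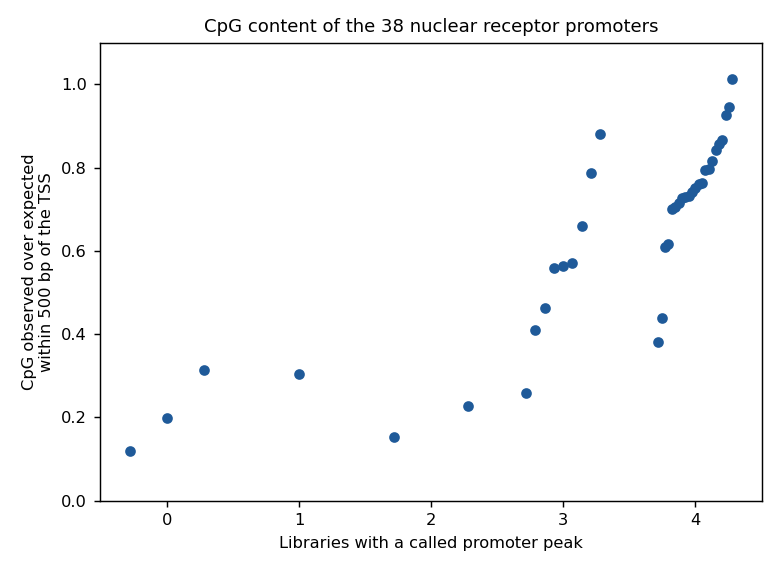
Ratio of observed to expected CpG within 500 bp of the TSS (vertical axis) for each of the 38 genes against the number of libraries with a called promoter peak (horizontal axis), with points spread sideways within a column in order of their value. The 3 genes with no peak lie at or below 0.314, and the 23 genes with a peak in every library lie between 0.381 and 1.01.

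The levels of NR2F1 signal in the 30 tested regions ranged over about 2 orders of magnitude. In WT, mean levels ran from 2.46 to 282 CPM, with a median of 27.4, against 30.002 for all tested promoter regions, and 14 of 30 lay above that promoter median. Per kb of called peak, which corrects for the wider regions of this set (median width 2697 bp against 2227 bp), the WT median was 18.9 CPM per kb against 22.6. On this scale 10 of 30 lay above the promoter median. The set as a whole was thus near the level of other promoters in CPM, and somewhat lower per kb. The 5 strongest regions in CPM stood at the 94.5th percentile of promoters or above. Per kb, Esrra and Nr4a3 among them stood at the 89.9th and 83.9th percentiles.

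The Nr1d2 region, chr14:18237418-18239983, held both TSSs of the gene and reached 321 CPM in WT replicate 1, 243 in WT replicate 2, 205 in Fam5snv/snv replicate 1 and 180 in Fam5snv/snv replicate 2. Values for each genotype are given in this order from here on. It ranked 57 of 12647 promoter regions by mean WT CPM. Per kb of called peak it held 167 and 95.7 CPM in WT and 80.7 and 73.5 in Fam5snv/snv, the highest level of the set on this scale too. Both WT libraries were above both Fam5snv/snv libraries on either scale. The signal came from many cells: 366 of 2572 barcodes (14.2%) and 260 of 1377 (18.9%) had a cut site there in WT, and 518 of 2274 (22.8%) and 531 of 2740 (19.4%) in Fam5snv/snv, shares that also follow the depth per barcode. Its paralog Nr1d1, with which it shares its role in the clock, had 55.4 and 41.5 CPM in WT and 51.8 and 43.2 in Fam5snv/snv over chr11:98772071-98777447, and the genotypes overlapped.

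TR4 and TR2 had the next levels per kb. The Nr2c2 region, chr6:92090425-92093182, held 230 and 162 CPM in WT, against 151 and 135 in Fam5snv/snv. The Nr2c1 region, chr10:94146405-94150268, held 139 and 108 CPM in WT, against 93.8 and 107 in Fam5snv/snv. Per kb of called peak Nr2c2 had 85.9 ± 34.3 CPM (SD, n = 2) and Nr2c1 55.2 ± 22.8 in WT, and the order of these neighbours lies within their spread. Both regions were higher in WT replicate 1 than in the other libraries.

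Among the immediate-early receptors, Nr4a3 had the highest level in every library. Its region, chr4:48042127-48049433, the widest of the set at 7307 bp, held 180 and 174 CPM in WT, against 130 and 135 in Fam5snv/snv. The 2 WT values lay close together, above both Fam5snv/snv values. Nr4a2 had tested regions at 2 promoters with WT means of 20.5 and 32.0 CPM, and Nr4a1 likewise with 22.1 and 15.8 CPM. The single Nr4a3 region held 2 TSSs, and Nr4a2 had a further region that was not tested. Summed over all its promoter regions, Nr4a2 held 29.4 and 97.1 CPM in WT and 68.9 and 66.5 in Fam5snv/snv. The same sums for Nr4a1 were 32.6 and 43.3 in WT and 43.6 and 34.9 in Fam5snv/snv. Per kb of called peak Nr4a3 had 39.4 ± 21.5 CPM in WT (SD, n = 2), so that part of its total goes with the width of its region.

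Esrra and Nr6a1 followed. The Esrra region, chr19:6919626-6926507, is shared with the promoter of Catsperz, and its signal cannot be assigned to either gene alone. It held 199 and 130 CPM in WT, against 129 in each Fam5snv/snv library, with WT replicate 1 standing above the others. The Nr6a1 region, chr2:38924442-38927821, held 75.3 and 91.4 CPM in WT, against 59.9 and 58.4 in Fam5snv/snv, with no overlap. The other oestrogen-related receptors, Esrrb and Esrrg, had 2 tested regions each, with WT means from 2.46 to 11.6 CPM.

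Among the ligand-bound receptors, Nr1h2 (LXR beta, a sensor of oxysterols) held 82.0 and 65.1 CPM in WT, against 49.1 and 48.4 in Fam5snv/snv over chr7:44552120-44554238. The upstream region of Thra (thyroid hormone receptor alpha), chr11:98739847-98744863, held 72.9 and 70.0 CPM in WT and 55.2 and 53.5 in Fam5snv/snv. The region of Nr3c1, the glucocorticoid receptor, on chromosome 18, held 42.0 and 59.1 CPM in WT and 36.9 and 38.9 in Fam5snv/snv. In these 3 regions both WT libraries were above both Fam5snv/snv libraries. Per kb, Nr1h2 and Esrra completed the 5 highest, at 47.5 ± 15.9 and 46.4 ± 26.2 CPM in WT (SD, n = 2), whereas Thra and Nr3c1 stood at 18.6 and 19.7, below the promoter median.

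The remaining tested regions had WT means from 2.46 to 43.0 CPM. The lowest was the upstream region of Esrrb, a receptor known from pluripotent cells, with 1.401 and 3.52 CPM in WT and 6.43 and 4.93 in Fam5snv/snv, from 4 and 10 cut sites in WT. The upstream region of Nr5a2 held 4.20 and 8.09 CPM in WT and 4.92 and 7.71 in Fam5snv/snv. The downstream region of Esrrg held 6.31 and 7.39 CPM in WT and 11.3 and 8.22 in Fam5snv/snv. In Esrrb and Esrrg the genotypes did not overlap, and in Nr5a2 they did.

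**Figure D3:**
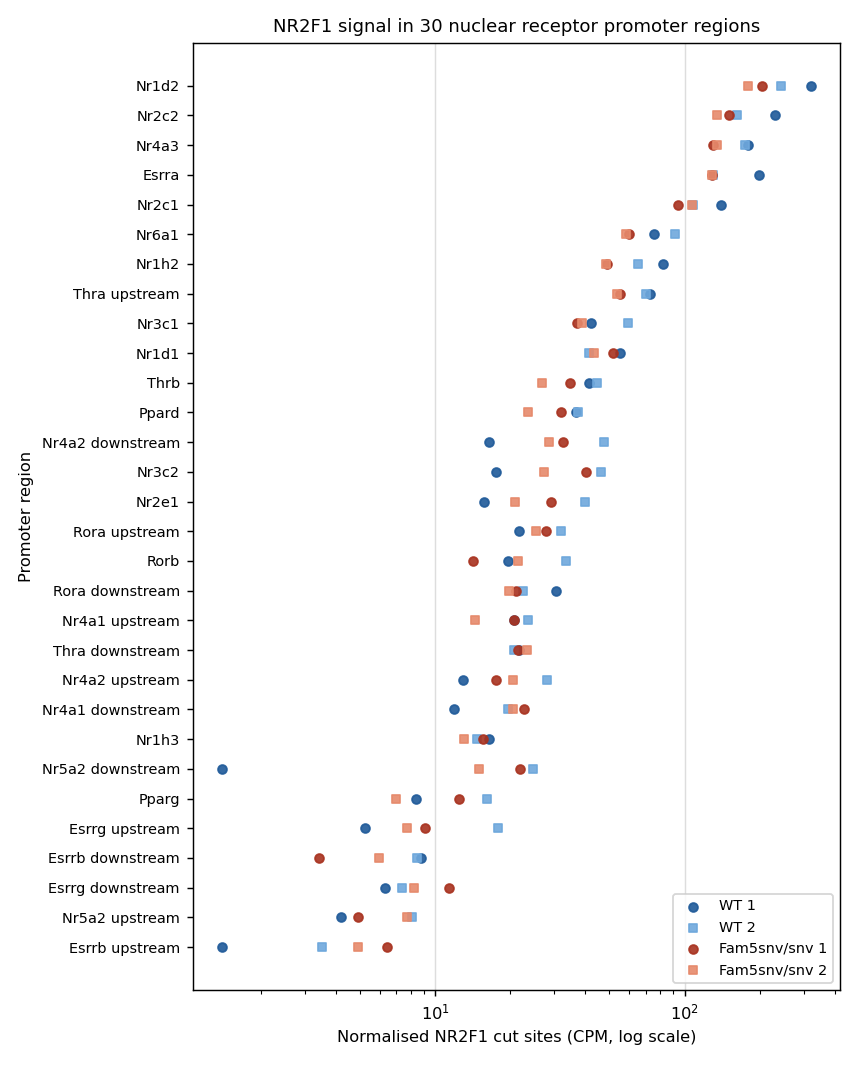
NR2F1 signal in CPM (horizontal, log axis) in the 30 tested promoter regions (rows), with 1 point per library, WT in blue and Fam5snv/snv in red, circles for replicate 1 and squares for replicate 2. Nr1d2 is highest in every library, and WT replicate 1 lies far to the left of the other libraries at the downstream region of Nr5a2.

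The comparison of genotypes addressed whether NR2F1 signal at these promoters differed in Fam5snv/snv cells. No region of the set passed the adjusted threshold in edgeR's quasi-likelihood test, in which the smallest adjusted p of the set was 0.573, and the adjusted test called 0% of the 35770 tested regions. Without adjustment, 2 of 30 regions were lower in Fam5snv/snv at p under 0.05 and 0 higher, against 3.37% lower and 5.29% higher of all tested regions and 6.7% lower and 1.54% higher of promoter regions. The 2 of 30 (6.67%) are close to the share of promoters. With DESeq2, which called 1.57% of all regions at the adjusted threshold, 0 of 30 regions were called, and 6 were lower and 0 higher at an unadjusted p under 0.05, against 6.91% lower and 7% higher of all tested regions and 14.2% lower and 2.07% higher of promoter regions. For a single region, 2 libraries against 2 cannot reach a two-sided p below 0.333 in an exact permutation test. In summed libraries, fewer bound cells and less signal per cell cannot be told apart.

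The regions of smallest unadjusted p were lower in Fam5snv/snv. At Nr1h2 the log2 fold change was −0.59 (SE 0.21, 95% interval −1.09 to −0.10, edgeR unadjusted p = 0.0253, adjusted p = 0.573). At Nr6a1 it was −0.50 (SE 0.20, −0.98 to −0.01, edgeR unadjusted p = 0.0452, adjusted p = 0.576). With the replicate number as a block the unadjusted edgeR p of Nr6a1 was 0.0563. The 2 next, Nr1d2 and Nr4a3, had intervals that reached 0.02 and 0.06. With peaks that touch the TSS window only, the log2 fold change of Nr4a3 was −0.02 (edgeR unadjusted p = 0.949) in place of −0.42. None of these passed the adjusted threshold, and with the cut sites scaled to cell barcodes all 4 were above 0.

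Calls in this set changed when 1 WT library was left out. Without WT replicate 2, the quasi-likelihood test called 5 regions lower at the adjusted threshold (Nr1d2, Nr2c2, Esrra, Nr1h2 and Nr4a3, log2 fold changes −0.75 to −0.45) and the downstream region of Nr5a2 higher (3.70). Without WT replicate 1 it called Nr6a1 alone (−0.64, edgeR adjusted p = 0.0480), and the log2 fold changes of Esrra, Nr2c2 and Nr2c1 were −0.015, −0.18 and −0.11, against −0.35, −0.45 and −0.30 with all libraries. These fits take the lone WT library to vary like the Fam5snv/snv pair, and they called 6315 and 1911 regions of all, respectively.

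The values at the other end were from regions with few cut sites. The upstream region of Esrrb had a log2 fold change of 1.199 (SE 0.84, 95% interval −0.79 to 3.18). At the downstream region of Nr4a1, with 11.9 and 19.7 CPM in WT and 22.8 and 20.5 in Fam5snv/snv, it was 0.45 (SE 0.36, −0.39 to 1.30). At the downstream region of Nr5a2, with 1.401 and 24.6 CPM in WT and 21.9 and 15.0 in Fam5snv/snv, it was 0.50 (SE 0.92, −1.66 to 2.67), where WT replicate 1 alone was low, at 4 cut sites, and its absence turned the value to −0.42. At the downstream region of Esrrg it was 0.51 (SE 0.52, −0.71 to 1.74). All 4 intervals included 0, and all 4 values were below 0 per kb of called peak. The downstream region of Esrrb had the lowest value of the set, −0.87 (SE 0.63, 95% interval −2.36 to 0.62). The highest and the lowest value of the set thus came from the same gene.

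Over the 30 regions the median log2 fold change was −0.34, against −0.21 for all tested promoter regions and 0.02 for all tested regions, but 0.64 against 0.97 for all tested regions when scaled to cell barcodes. Values were below 0 at 23 of 30 regions (76.7%), against 70.0% of promoter regions. Scaled to all deposited cut sites, the median of all tested regions moved to −0.09 and that of the set to −0.44. Where peaks cover at least 50% of a region in every library, the median of the set was −0.14 over 11 regions, against −0.01 for all regions kept. Without WT replicate 2 the median of the set was −0.18, against −0.22 for promoter regions, so the order of the set and promoters turned. Both Fam5snv/snv libraries were below both WT libraries at 13 of 30 regions (43.3%), against 37.8% of promoter regions and 21.4% of all regions, and above them at 3 of 30 (10.0%), against 10.4% and 23.2%. The 13 were Nr1d2, Nr1h2, Nr2c1, Nr2c2, Nr3c1, Nr4a3, Nr6a1, Thra upstream, Thrb, Ppard, Rora downstream, Esrra and Esrrb downstream, and the 3 were Nr4a1 downstream, Esrrb upstream and Esrrg downstream. The counts of the set thus follow those of promoters at large.

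**Figure D4:**
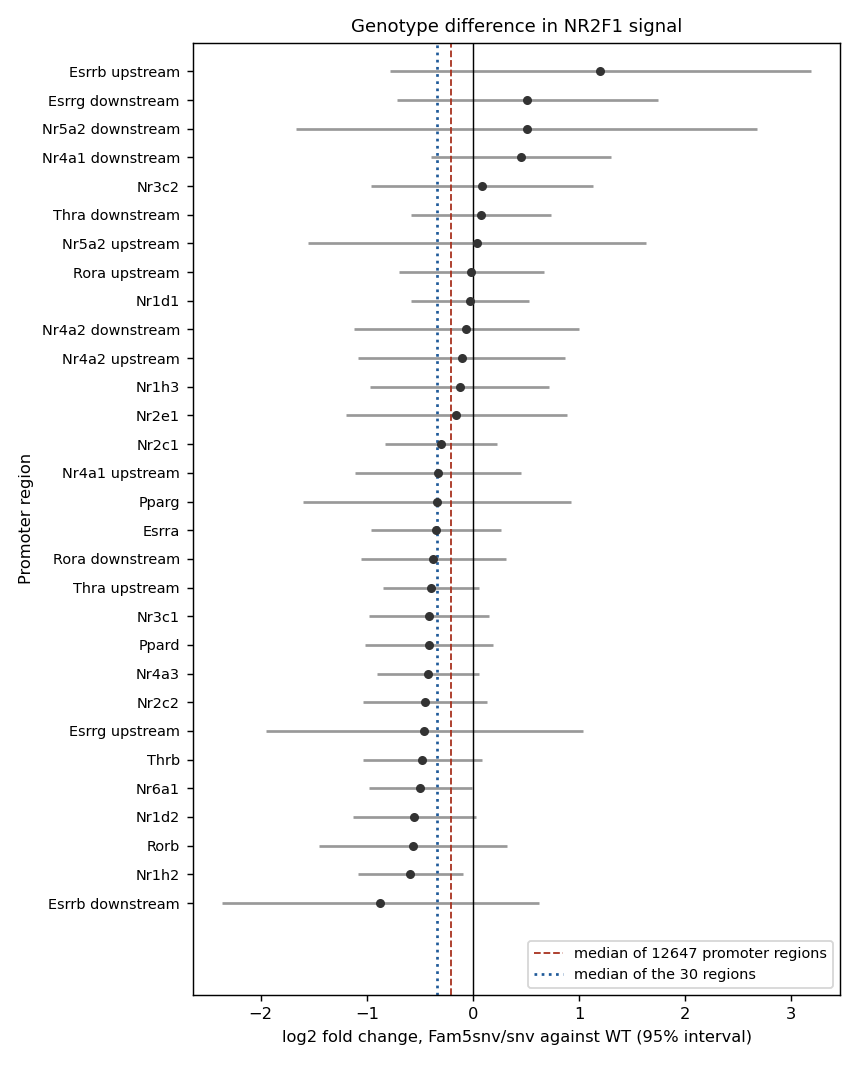
log2 fold change of NR2F1 cut sites, Fam5snv/snv against WT (horizontal axis), with its 95% interval (bars) for the 30 tested promoter regions, ordered by value. The intervals of 28 regions include 0, and the dotted and dashed lines mark the medians of the set (−0.34) and of all tested promoter regions (−0.21), which lie at 0.64 and 0.75 when cut sites are scaled to cell barcodes in place of TMM.

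The length of called peak moved with these values. Called peaks were on average longer in Fam5snv/snv at 30 of 30 regions and at 34589 of 35770 regions of all. WT replicate 1 had the shortest cover at 29 of the 30 (96.7%), against 96.8% of promoter regions. The median share of a region that was covered by peaks was 40.8% in WT replicate 1, 84.1% in WT replicate 2, and 91.1% and 95.3% in Fam5snv/snv, against 44.4%, 78.7%, 86.1% and 95.5% over all promoters. Across the 30 regions the log2 fold change correlated with the log2 ratio of covered length (Pearson r = 0.848), as it did across all tested regions (r = 0.842). These are correlations across regions of the same 4 libraries, and both axes share those libraries' peaks. Per kb of called peak, both Fam5snv/snv libraries were below both WT libraries at 26 of 30 regions, all but Nr1h2, Nr1h3, Ppard and Esrrg downstream, against 74.5% of promoter regions. With the covered length as an offset in the fit, all 30 values were below 0 with a median of −0.81, against −0.76 for all tested regions. The part of peak calling in the differences between genotypes was not tested.

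**Figure D5:**
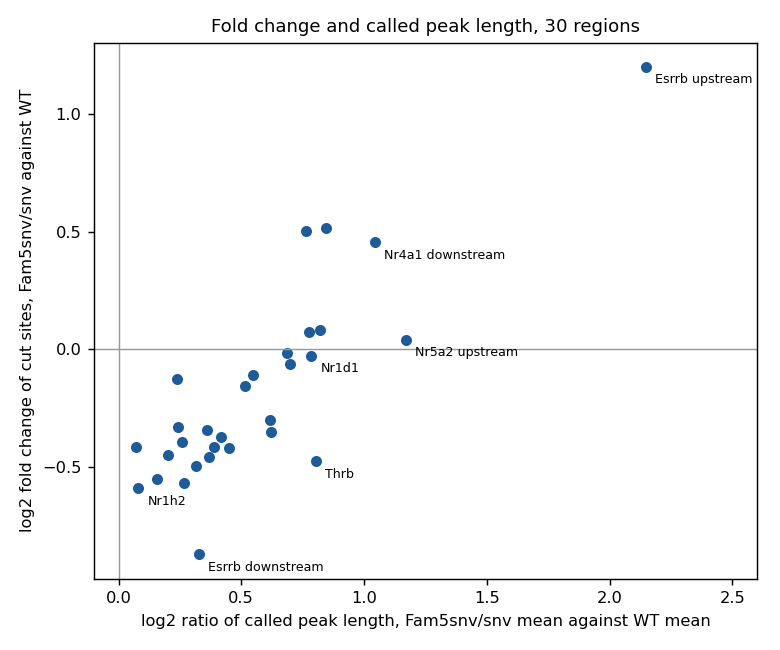
log2 fold change of cut sites, Fam5snv/snv against WT (vertical axis), against the log2 ratio of called peak length, Fam5snv/snv mean against WT mean (horizontal axis), for the 30 tested regions. All points lie right of 0 on the horizontal axis, and the region with the largest ratio, Esrrb upstream, also has the largest log2 fold change, 1.199.

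Nuclear receptors act through corepressors and coactivators, and the promoters of 20 such genes gave 24 tested regions. Their median WT level was 48.4 CPM, against 27.4 for the receptor regions and 30.002 for promoters. Their regions were wider, with a median of 3686.5 bp, and per kb of called peak the WT median was 24.2 CPM, against 18.9 for the receptors and 22.6 for promoters. A peak in every library was found at 19 of the 20 genes, against 58.1% of all genes. The highest were Sin3a, a scaffold of histone deacetylase complexes, with 349 and 298 CPM in WT and 271 and 227 in Fam5snv/snv, and Carm1, an arginine methyltransferase coactivator, with 188 and 138 CPM in WT and 112 and 107 in Fam5snv/snv. In both, the WT libraries were above the Fam5snv/snv libraries. Without adjustment 2 of 24 regions were lower at p under 0.05 and 1 was higher in edgeR's test, against 6.7% lower and 1.54% higher of promoter regions, and 0 passed the adjusted threshold. The smallest p among lower regions was at the coactivator gene Ncoa2, with 106 and 118 CPM in WT and 79.7 and 57.2 in Fam5snv/snv (log2 fold change −0.71, SE 0.24, edgeR unadjusted p = 0.0195). The higher region was 1 of 2 at Nrip1, the gene of the corepressor RIP140, with 81.6 and 80.2 CPM in WT and 116 and 128 in Fam5snv/snv (log2 fold change 0.59, SE 0.20, edgeR unadjusted p = 0.0213). The other Nrip1 region had 74.6 and 80.5 CPM in WT and 64.5 and 49.6 in Fam5snv/snv, so that the 2 regions of this gene lay on opposite sides of 0.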

How the data were processed

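The 4 libraries, 2 WT and 2 Fam5snv/snv, profile NR2F1 by single-cell CUT&Tag. All 4 used the NR2F1 antibody and no control library was among them, so signal that does not depend on this antibody was not measured. For each library the authors deposited cell barcodes, peaks and raw counts of cut sites, one value per peak and cell, with no position inside a peak. Cell Ranger ATAC is named in the study's methods, and in the submitters' processing notes together with mm10. The headers of all 4 matrices give software version 1.2.0, another version than the methods name, and which made the peaks is not settled here. Peaks were called in each library on its own.

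Cells are not replicates, so the counts of all barcodes were added up in each library, and neither a cell filter nor a doublet caller was added. Separate litters are not stated beyond the pooled embryo numbers, so p-values measure the spread between these libraries. Peaks overlapping by 1 bp were merged. The test required a peak in all 4 libraries and 10 or more cut sites in 2 or more of them, and used edgeR 4.0.16 (quasi-likelihood, TMM, no block, Benjamini-Hochberg over 35770 regions) in R 4.3.3. The common biological coefficient of variation was 0.305, with 2 residual degrees of freedom. CPM are cut sites scaled to 1000000 in tested regions, after TMM. Intervals cover the spread between libraries. TSSs came from GENCODE M21. The fit was tested on simulated data, and DESeq2 1.42.0 was an alternative.

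Regions named were the 10 highest by mean WT CPM, the 5 highest per kb, the 4 of smallest unadjusted p in each direction and the 3 lowest, and in the coregulator list the 2 highest and the smallest p in each direction. The other Nrip1 region, the members of non-overlapping groups and the genes of extreme CpG content were named after their values were seen. Where a gene had 2 tested regions they are called upstream and downstream. The genes, lists and tests were chosen with earlier results of these data known.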

Additional observations from a re-analysis of the deposited data

How the results depend on the processing

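Among 199 refits of the 15 named regions, 168 kept their direction and side of the adjusted threshold, 24 turned direction and 7 newly passed the threshold, all of them without 1 WT library. Scaled to cell barcodes, the log2 fold changes became 0.99 at Nr1d1, 0.46 at Nr1d2, 0.41 at Nr1h2, 0.70 at Nr2c1, 0.58 at Nr2c2, 0.47 at Nr3c1, 0.53 at Nr4a3, 0.42 at Nr6a1, 0.57 at Thra upstream and 0.69 at Esrra, the median of the set was 0.64 and unadjusted calls were 8708 higher and 0 lower over all regions and 1 and 0 in the set. The median WT signal was then 47.8 cut sites per 1000 barcodes, another unit, and 18.9 CPM per kb of called peak. Per kb of called peak, values became −0.67 at Nr4a1 downstream, −1.25 and −0.34 at Nr5a2 upstream and downstream, −0.96 at Esrrb upstream and −0.45 at Esrrg downstream, and the median −0.81. Nr1d1, near 0, turned to 0.0030 with peaks touching the TSS window only and 0.067 with peaks merged at 200 bp, Nr5a2 upstream to −0.061 scaled to all cut sites (where 1 member region was lower at unadjusted p), and Nr2c1 to 0.012 where peaks cover at least 50% of the region. That last setting kept 8900 regions, 11 of the set, with a median of −0.14 and a median WT signal of 156 CPM, and called 14 higher and 4 lower over all (582 and 298 unadjusted) and 0 lower in the set without adjustment, with fewer regions tested. DESeq2 called 366 higher and 194 lower (2470 lower unadjusted), and 6 member regions were lower unadjusted. The share of TSS windows with AGGTCA was 48.4% with 500 bp on either side, against 41.6% of all windows.

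Leaving out each library in turn gave 0 to 4094 higher and 0 to 2221 lower regions at the adjusted threshold and 310 to 6699 higher and 92 to 4552 lower unadjusted, in the set 0 to 1 higher and 0 to 5 lower adjusted and 0 to 5 and 0 to 10 unadjusted, with medians of −0.41 to −0.18. Nr1d1 ranged from −0.22 to 0.19, Nr5a2 upstream from −0.36 to 0.59 and Nr5a2 downstream from −0.42 to 3.70. The lone library of a genotype is assumed to vary like the other group. With the replicate block the set had 0 calls and a median of −0.31, with 1671 higher and 965 lower regions unadjusted. The set still had 2 lower regions unadjusted in edgeR's test, with Nr1d2 (edgeR p of 0.0488) in place of Nr6a1 (edgeR p of 0.0563), and adjusted calls stayed at 0. Only 2 numbers are shared. Across regions, the deviations of WT replicate 1 and Fam5snv/snv replicate 1 from their genotype means had a correlation of 0.029. With 2 libraries per genotype, this value cannot show whether same-numbered libraries were prepared together. The cause of these changes was not tested. Low WT depth limits regions of few cut sites.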
